A study of Mus musculus with 4 samples.

Results

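The angiopoietin-Tie system is the ligand and receptor pathway through which mural cells and endothelial cells (ECs) of the same vessel signal to each other. It was followed here through 5 genes chosen by symbol for their known roles: the receptors *Tek* and *Tie1*, the phosphatase *Ptprb*, and the ligands *Angpt1* and *Angpt2*. These genes and the lists below were chosen with earlier results of these data known, so counts over them are descriptive. All 5 were listed among the 12693 gene symbols measured by RNA-seq in brain ECs with and without *Foxq1*, and all 5 passed the filter on low values.

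TEK, also called TIE2, is a receptor tyrosine kinase of ECs. Angiopoietin-1, made largely by pericytes and other perivascular cells, activates TEK, and the receptor then signals through PI3K and AKT, which keeps FOXO transcription factors out of the nucleus. Angiopoietin-2 is made by ECs themselves, is a target of FOXO1, and activates or blocks TEK depending on context. TIE1 forms complexes with TEK and modulates its response, while PTPRB, the vascular endothelial protein tyrosine phosphatase, removes phosphate from TEK. In the brain the pathway is known for its part in vessel maturation, pericyte coverage and barrier stability.

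The samples were 2 wild-type and 2 *Foxq1* cKO samples, all from C57BL/6 mice at embryonic day 18. The cKO genotype was FOXQ1fl/fl;Tie2-Cre, in which regulatory sequence of *Tek* drives Cre, so that recombination follows the activity of the promoter of a gene examined here. Tie2-Cre is also known to recombine blood cells of endothelial origin. According to the methods, control littermates lacked the Cre transgene, and cortical cells were sorted by CD31, the product of *Pecam1*, whereas the labels name the source as brain. Neither source gives the floxed state of the controls, the sex of the embryos or the number of embryos behind a sample. The p-values thus concern differences between samples of unknown embryo number. Those of single genes also draw on variance shared across genes, except where stated. Reads on listed genes numbered 21466436 and 17901203 in wild-type 1 and 2, and 15827166 and 16963866 in cKO 1 and 2. Values below are normalized counts, that is, reads divided by a size factor for each sample.

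*Foxq1*, the deleted gene, was low in both cKO samples. It stood at 353 and 297 normalized counts in wild-type 1 and 2, and at 5.44 and 32.6 in cKO 1 and 2. These values rested on 419, 298, 5 and 32 reads. The cKO mean was 5.84% of the wild-type mean, and the log2 fold change was −4.47 (95% CI −7.01 to −1.92). With 2 samples in each group, limma gave an adjusted p of 0.857 even for this gene, and DESeq2 on the recovered reads gave an adjusted p of 0.00854, the lowest of 17 alternative settings that reached up to 0.9996. The residual level in cKO 2 was 5.98 times that in cKO 1.

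Endothelial identity was clear in every sample. All 13 endothelial markers were listed, and *Cldn5*, the main claudin of the blood-brain barrier, was the most abundant of them at 151977 and 136639 normalized counts in wild-type 1 and 2, and 126706 and 134826 in cKO 1 and 2. The marker *Pecam1*, whose product was used for sorting, stood at 14775 and 13823 in wild-type 1 and 2, and at 11143 and 13406 in cKO 1 and 2. The summed endothelial markers were 442985 and 405105 in wild-type 1 and 2, and 350360 and 392243 in cKO 1 and 2. Both cKO sums lay below both wild-type sums, with cKO 1 the lowest. Of the 13 markers, 8 had both cKO samples below both wild-type samples, 1 (*Cdh5*) had both above, and 4 overlapped, while 18% of all genes tested were wholly lower and 18% wholly higher. In bulk samples, fewer cells of a type and less RNA per cell cannot be told apart.

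Transcripts of mural cells, the usual source of angiopoietin-1, were abundant after the sort. Of 12 mural markers 9 were listed, and *Acta2*, *Tagln* and *Myh11*, which mark smooth muscle, were not listed. The most abundant, *Rgs5*, stood at 91163 and 89164 in wild-type 1 and 2, and at 93044 and 89248 in cKO 1 and 2. The mural sum was 155649 and 153696 in wild-type 1 and 2, and 160912 and 146364 in cKO 1 and 2. The groups overlapped in the mural sum and in all 9 listed markers, where 18% of all genes were wholly lower in cKO samples and 18% wholly higher.

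Compared by length, the receptors stood far above the ligands. Levels were taken as normalized counts per kilobase (kb) of annotated exon, and are given as the mean ± SD over all 4 samples. *Tie1* was highest at 3402 ± 554 per kb, followed by *Tek* at 2238 ± 259 per kb and *Ptprb* at 1092 ± 144 per kb. *Angpt2* stood at 281 ± 155 per kb and *Angpt1* at 22.8 ± 15.8 per kb. The lowest *Tie1* sample, 2939 per kb, lay above the highest *Tek* sample, 2513 per kb, and no neighbors in this order overlapped in their sample values. By mean level per kb, *Tie1* and *Tek* stood at percentiles 98.7 and 97.7 of genes with an exon length, and *Angpt1* at percentile 14.3. The exon length joins all annotated transcripts of a gene, so a gene expressed from a short isoform is placed too low.

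Between genotypes, the clearest separation among the 5 genes was in the ligand *Angpt2*, and none of the 5 passed the test after adjustment. At an adjusted p under 0.05, limma called 0 of the 5 genes and 0% of the 12472 genes tested. DESeq2 on recovered reads also called 0 of the 5, against 0.465% of all genes, and edgeR called 0 genes. At an unadjusted p under 0.05, limma placed 1 of the 5 lower in *Foxq1* cKO samples, against 3.05% of all genes, and 0 of the 5 higher, against 2.17%. Both cKO samples lay below both wild-type samples for *Angpt2* and *Tie1*, 2 of the 5, where 18% of all genes did so. None of the 5 had both cKO samples above both wild-type samples, which 18% of all genes had. The median log2 fold change of the 5 was −0.21, beside 0.0086 for all genes tested.

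**Figure D1:**
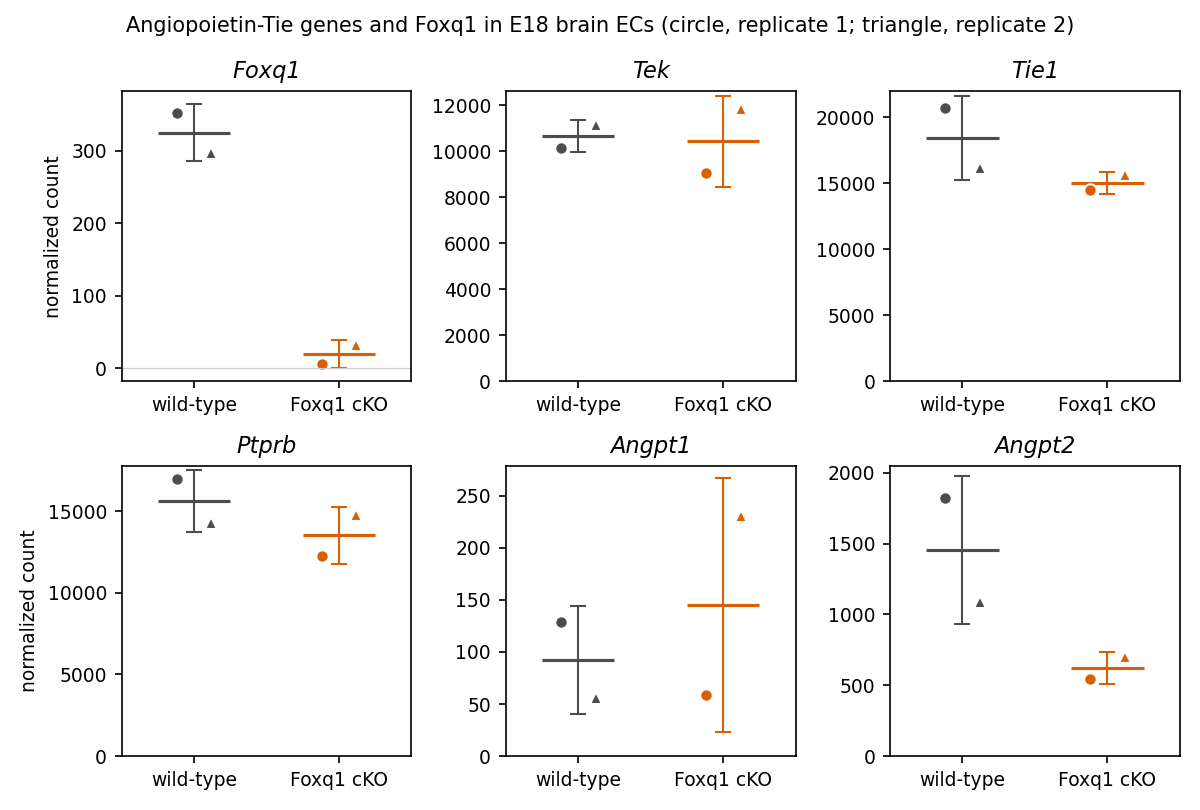
Normalized counts of *Foxq1* and the 5 angiopoietin-Tie genes in each sample of wild-type (grey) and *Foxq1* cKO (orange) brain ECs at embryonic day 18; circles are replicate 1, triangles replicate 2, horizontal lines group means and bars the SD of 2 samples. *Angpt2* lies between 544 and 701 in the cKO samples and between 1086 and 1823 in the wild-type samples, while *Tek*, *Ptprb* and *Angpt1* overlap between the groups.

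*Tek*, the signaling receptor, was nearly level between the genotypes. Its normalized counts were 10159.5 and 11146 in wild-type 1 and 2, and 9037 and 11839 in cKO 1 and 2. The cKO samples were the lowest and the highest of the 4, enclosing both wild-type samples. Means were 10653 ± 697 in wild-type and 10438 ± 1981 in cKO samples (SD, n = 2 each). The log2 fold change was −0.041 ± 0.17 (SE), and its 95% CI reached from 0.729-fold to 1.30-fold. A loss or gain of *Tek* transcript within those bounds could not be seen with these samples. The sign of the difference was not stable, since it was 0.084 with quantile normalization, 0.026 without wild-type 2 and 0.15 without cKO 1.

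*Tie1*, the partner receptor, had values of 20670.4 and 16155 in wild-type 1 and 2, and 14453 and 15627 in cKO 1 and 2. Both cKO samples lay below both wild-type samples, but cKO 2 was close to wild-type 2, and wild-type 1 was well above the other 3. The cKO mean was 81.7% of the wild-type mean, and the log2 fold change was −0.28 ± 0.15 (SE), with an adjusted p of 0.857 in limma. Its 95% CI, −0.65 to 0.091, included no difference. Without wild-type 1 the log2 fold change was −0.10, and without wild-type 2 it was −0.46, where limma gave an unadjusted p of 0.0238 (adjusted p = 0.328).

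*Ptprb*, the phosphatase that acts on TEK, followed the same order of samples as *Tie1* at its ends. Values were 16938 and 14266 in wild-type 1 and 2, and 12266 and 14758 in cKO 1 and 2. The groups overlapped, because cKO 2 lay above wild-type 2. The log2 fold change was −0.21 ± 0.15 (SE), with an adjusted p of 0.868 in limma. It was −0.075 without cKO 1 and −0.085 without wild-type 1, and −0.34 without cKO 2 and −0.33 without wild-type 2.

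Within a sample, the balance of the 3 cell-surface components showed no separation of the genotypes. The ratio of *Tie1* to *Tek* normalized counts was 2.03 and 1.45 in wild-type 1 and 2, and 1.60 and 1.32 in cKO 1 and 2. The highest ratio was that of wild-type 1 and the lowest that of cKO 2, with overlap between the groups. The log2 ratio differed by −0.24 between the group means, with p = 0.667 in an exact two-sided permutation test. The ratio of *Ptprb* to *Tek* was 1.67 and 1.28 in wild-type 1 and 2, and 1.36 and 1.25 in cKO 1 and 2. These groups overlapped as well, with a log2 difference of −0.17 and an exact permutation p of 0.667. With 2 samples a group this test cannot give a p below 0.333. Both differences changed sign when wild-type 1 was left out, to 0.0035 for *Tie1* to *Tek* and 0.023 for *Ptprb* to *Tek*.

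*Angpt2*, the endothelial ligand, was lower in both cKO samples than in either wild-type sample. It stood at 1823 and 1086 normalized counts in wild-type 1 and 2, and at 544 and 701 in cKO 1 and 2. The wild-type samples were themselves apart by 1.68 times, and the higher cKO sample lay well below the lower wild-type sample. The values rested on 2164, 1089, 500 and 689 reads. Group means were 1455 ± 522 in wild-type and 623 ± 111 in cKO samples (SD, n = 2 each), the latter 42.8% of the former. The log2 fold change was −1.19 ± 0.37 (SE), with a 95% CI of −2.09 to −0.29. By unadjusted p, 0.0179, *Angpt2* ranked 221 of the 12472 genes tested, and limma gave it an adjusted p of 0.857. When each gene was tested on its own variance, without the moderation of limma, the unadjusted p of *Angpt2* was 0.104 with all samples. Its place under 0.05 thus depended on variance shared across genes. DESeq2 gave an adjusted p of 0.214 and edgeR one of 0.937, and over all 17 alternative settings the adjusted p ran from 0.214 to 0.9996. The unadjusted p was 0.0903 without wild-type 1 and 0.0957 without cKO 1, with log2 fold changes of −0.81 and −1.004. It was 0.00567 without wild-type 2 and 0.043 without cKO 2, with log2 fold changes of −1.56 and −1.37.

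The summed endothelial, microglial and glial markers were lower in both cKO samples, as was *Angpt2*. The summed endothelial markers of the cKO samples averaged 87.6% of the wild-type samples, and the part of this in the values of *Angpt2* was not tested. When all values were scaled to the geometric mean of the endothelial markers, a setting chosen after seeing the data, the median log2 fold change of all genes became 0.19. On that scale *Angpt2* stood at −1.01, *Tie1* at −0.10, *Ptprb* at −0.028 and *Tek* at 0.14. Relative to the median of all genes they stood at −1.19, −0.29, −0.22 and −0.049, since a scaling shifts all genes of a sample alike. Scaled to the mural markers, *Angpt2* stood at −1.14 and *Tek* at 0.0018, or −1.19 and −0.049 relative to the median. Of the 12 markers of microglia and macrophages all 12 were listed, *Csf1r* was the most abundant, and their sum was 9781 and 12442 in wild-type 1 and 2, and 7913 and 8955 in cKO 1 and 2. Of the 12 microglial genes 2 had both cKO samples below both wild-type samples and 2 had both above, near the 18% of all genes in each direction, and the median log2 fold change was 0.013. All 8 markers of radial glia and astroglia were listed, *Slc1a3* was the most abundant, and their sum was 20717 and 21176 in wild-type 1 and 2, and 17243 and 17134 in cKO 1 and 2. In the glial list 5 of 8 genes had both cKO samples below both wild-type samples, and 1 of the 8, the astroglial marker *Aqp4*, had both above, at a log2 fold change of 0.13, where 18% of all genes did each. The astroglial marker *Gfap* of the same list stood at 3073 and 2420 in wild-type 1 and 2, and at 1081 and 1329 in cKO 1 and 2. Its log2 fold change, −1.19 ± 0.25 (SE), was as large as that of *Angpt2*. Limma gave *Gfap* an adjusted p of 0.857, edgeR gave 0.937, and DESeq2 gave 0.0162, past the threshold. The part of these cell types in the result was not tested.

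The remaining marker lists overlapped between the genotypes in their sums. Of 6 fibroblast markers 4 were listed, led by *Col3a1*, with *Dcn* and *Lum* not listed, and their sum was 8790.2 and 9941 in wild-type 1 and 2, and 9434 and 5736 in cKO 1 and 2. Of 10 neuronal markers 8 were listed, led by *Map2*, with *Eomes* and *Gad1* not listed, and the sum was 6110 and 5713 in wild-type 1 and 2, and 4203 and 5928 in cKO 1 and 2. Of 6 markers of the oligodendrocyte lineage only *Olig1* and *Cspg5* were listed, and markers not listed included *Olig2* and *Sox10*. *Olig1* was the more abundant, and the sum of both was 3221 and 2232 in wild-type 1 and 2, and 1503 and 3417 in cKO 1 and 2. *Cspg5* stood at 869 and 457 in wild-type 1 and 2, and at 282 and 346 in cKO 1 and 2. Its groups did not overlap, with a log2 fold change of −1.01 ± 0.49 (SE) and an adjusted p of 0.857 in limma. Of 8 erythroid markers 7 were listed, led by *Hba-a1*, with *Hbb-y* not listed, and the sum was 20859 and 15770 in wild-type 1 and 2, and 16022 and 20516 in cKO 1 and 2. Median log2 fold changes were −0.52 for fibroblast, −0.35 for neuronal, −0.54 for oligodendrocyte lineage and −0.043 for erythroid markers. The part of these cell types in the values of the 5 genes was not tested.

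*Angpt1*, the agonist, was toward the lower end of listed genes and scattered widely. It stood at 129 and 55.8 normalized counts in wild-type 1 and 2, and at 58.8 and 231 in cKO 1 and 2. These were 153, 56, 54 and 227 reads. The highest and the second lowest value were both cKO samples, so the groups overlapped, and the cKO samples differed from each other by 3.93 times. Its log2 fold change was 0.45 ± 0.97 (SE), with a 95% CI that reached from 0.266-fold to 7.07-fold. It changed sign without wild-type 2 (−0.14) and without cKO 2 (−0.52). The part of mural cells in these values was not tested.

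The ratio of *Angpt2* to *Angpt1* normalized counts was 14.1 and 19.4 in wild-type 1 and 2, and 9.26 and 3.04 in cKO 1 and 2. Both cKO ratios lay below both wild-type ratios. Per kb of exon, *Angpt2* exceeded *Angpt1* in every sample, from 4.28 times in cKO 2 to 27.4 times in wild-type 2. These ratios are those of cells sorted by CD31, not of whole vessels, and the part of mural cells in them was not tested. The log2 ratio differed by −1.64 between the groups, with p = 0.333, the smallest p the exact two-sided permutation test allows here. Leaving out single samples gave differences from −2.44 without cKO 1 to −0.85 without cKO 2, so its size rested in good part on the *Angpt1* value of cKO 2.

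The 5 genes lie on 4 chromosomes of the mouse genome. The table gives no coordinates and the labels name mm9, so the positions given here are those of the GRCm38 assembly and serve only to locate the genes. *Tek* (ENSMUSG00000006386) lies at chr4:94739289-94874976 on the plus strand, and *Tie1* (ENSMUSG00000033191) at chr4:118471191-118490061 on the minus strand. *Ptprb* (ENSMUSG00000020154) lies at chr10:116275523-116389535 on the plus strand. *Angpt1* (ENSMUSG00000022309) lies at chr15:42424723-42676977 and *Angpt2* (ENSMUSG00000031465) at chr8:18690263-18741562, both on the minus strand.

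*Angpt2* lies within the bounds of *Mcph1*, a gene of chromosome condensation on the opposite strand, with 0 bp of shared exon. Given for its position, *Mcph1* stood at 63.2 and 181 normalized counts in wild-type 1 and 2, and at 556 and 209 in cKO 1 and 2. Both cKO samples were above both wild-type samples, the opposite order to *Angpt2*, with a log2 fold change of 1.66 and an adjusted p of 0.857 in limma. *Angpt1* shares 737 bp of exon with *Gm17473*, an antisense gene that was not listed. The libraries are described in the paper as based on Smart-seq2, which does not mark the strand, and in the labels only as made from total RNA. Without strand, the reads of *Angpt1* and *Gm17473* cannot be told apart. The same holds for *Foxq1*, which shares 3200 bp of exon with *A530084C06Rik* on the opposite strand, a gene that was not listed.

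Promoter sequence was at hand for the receptors, whose known regulators include ETS factors such as ELF2. Among RefSeq promoters of GRCm38.p6, *Tek* and *Tie1* were matched, and *Ptprb*, *Angpt1* and *Angpt2* were not. In the 250 bases before the gene start as RefSeq places it, the ETS core GGAA, read on both strands, occurred 2 times at *Tek* and 7 times at *Tie1*, and 93.4% of 32851 promoters held at least 1. RefSeq starts *Tek* at position 94739289, as above, but *Tie1* at 118489849, inside the bounds given above, so its window overlaps annotated gene. The windows below show both *Tek* matches and the *Tie1* match nearest that RefSeq start, with the core in capitals, as GGAA or as its reverse complement TTCC.
*Tek*, chr4:94739190-94739213, plus strand: tgttattcaaTTCCtggcctatga
*Tek*, chr4:94739220-94739243, plus strand: acccctattgTTCCtgaaaatgct
*Tie1*, chr4:118489852-118489875, minus strand: gcgacaactcTTCCcaccctctct
The motif GTTTC, also read on both strands, occurred in neither promoter, and 39.7% of promoters held it. TGTTT, a forkhead core, occurred 2 times at *Tek* and 0 times at *Tie1*, and 46.4% of promoters held it. A match describes letters only, and binding to these promoters was not measured here.

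Transcription factors known to act on endothelial Tie genes were listed in full, 12 of 12. Limma called 0 of them at an adjusted p under 0.05, and at an unadjusted p under 0.05 it placed 1 higher and 0 lower, against 2.17% and 3.05% of all genes. The gene was *Elf2*, an ETS factor, at 1427 and 1147 normalized counts in wild-type 1 and 2, and 2222 and 1861 in cKO 1 and 2. Both cKO samples were above both wild-type samples, with a log2 fold change of 0.67 ± 0.25 (SE) and an adjusted p of 0.857 in limma. Groups did not overlap for 3 of the 12 in each direction, beside 18% of all genes in each. The median log2 fold change was 0.11, and its sign turned with DESeq2 (−0.0030) and edgeR (−0.0034). Without wild-type 1 it was 0.018, and without wild-type 2 it was 0.041.

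Among relatives of the ligands and matrix proteins that bind them, 4 of 9 genes were listed, and limma called 0 at either threshold. Of the 4, 2 (*Angptl4* and *Svep1*) had both cKO samples below both wild-type samples, where 18% of all genes did. *Svep1* passed the filter on low values only through its wild-type samples, so nothing is drawn from that count. Genes not listed included *Angpt4* and *Fgl2*. *Angptl4*, a secreted inhibitor of lipoprotein lipase, was the most abundant at 11235 and 7624 normalized counts in wild-type 1 and 2, and 4598 and 7380.4 in cKO 1 and 2. The cKO samples were lower, although cKO 2 was close to wild-type 2, and the log2 fold change was −0.67 ± 0.29 (SE). *Angptl2* (log2 fold change 0.38) and *Angptl6* (−0.018) overlapped between the groups. *Svep1*, named after its values were seen, encodes a matrix protein known as a ligand of TIE1. It stood at 36.2 and 30.9 in wild-type 1 and 2, and at 6.53 and 6.10 in cKO 1 and 2. The groups did not overlap, but reads were few, and the cKO mean of 6.32 lay below the filter of 10, against 33.6 in wild-type samples. The gene was tested only through its wild-type level, so its separation is not read as a change. The 95% CI of its log2 fold change of −2.24 was −4.67 to 0.20. *Svep1* shares 2244 bp of exon with *Gm26889* on the opposite strand, which was not listed. The median log2 fold change of the 4 genes, which include *Svep1*, was −0.34. It was −0.22 without wild-type 1, −0.13 without cKO 1 and −0.56 without cKO 2. For the same reason nothing is drawn from these medians.

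Integrins, junction proteins and sheddases that act with or on the Tie receptors were listed for 9 of 10, with *Itgb3* not listed. Limma called 0 of them at either threshold, and groups did not overlap for 1 in each direction, beside 18% of all genes in each. The integrin subunits *Itgb1* and *Itga5* had log2 fold changes of −0.0026 and 0.023, and the sheddase *Adam10* had 0.068. *Mmp14*, a membrane metalloproteinase, stood at 419 and 640.0 normalized counts in wild-type 1 and 2, and at 382 and 278 in cKO 1 and 2. Both cKO samples were lower, by a log2 fold change of −0.67 ± 0.47 (SE). The median of the 9 genes was 0.023, and its sign turned without wild-type 2 (−0.099) and without cKO 2 (−0.055), while it was 0.097 without wild-type 1, 0.11 without cKO 1 and 0.14 with quantile normalization.

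Downstream of TEK, all 23 genes of the branches to PI3K, AKT and ERK were listed. Limma called 0 at an adjusted p under 0.05, and at an unadjusted p under 0.05 it placed 1 lower and 0 higher, near the 3.05% and 2.17% of all genes. This was *Akt2*, a serine-threonine kinase of the AKT family, at 2055 and 2574 normalized counts in wild-type 1 and 2, and 1232 and 1489 in cKO 1 and 2. No cKO sample reached a wild-type value, with a log2 fold change of −0.76 ± 0.25 (SE) and an adjusted p of 0.857 in limma. Both cKO samples lay below both wild-type samples for 3 of the 23 genes and above for 0, where 18% of all genes did each. The median was −0.050, and it was 0.053 without cKO 2, −0.13 without cKO 1 and −0.0017 without wild-type 1.

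FOXO factors and genes known as their targets were listed for 11 of 13, with *Bcl6* and *Esm1* not listed. Limma called 0 at either threshold, while 5 of the 11 had both cKO samples below both wild-type samples and 0 had both above, against 18% of all genes in each direction. *Irs2*, an insulin receptor substrate, stood at 216 and 394 normalized counts in wild-type 1 and 2, and at 128 and 81.4 in cKO 1 and 2. Each cKO value was below each wild-type value, with a log2 fold change of −1.50 ± 0.68 (SE). *Klf6* and *Klf2*, zinc finger factors of ECs, had log2 fold changes of −0.12 and −0.17, and *Pik3ip1*, an inhibitor of PI3K, overlapped between the groups at 0.13. The median of the 11 genes was −0.17, and without cKO 1 it was −0.45.

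The VEGF system, which acts on the same cells, had 7 of 8 genes listed, with *Vegfa* not listed. Limma called 0 at an adjusted p under 0.05, and at an unadjusted p under 0.05 it placed 1 lower and 0 higher, against 3.05% and 2.17% of all genes. *Flt1*, the decoy-like VEGF receptor, was that gene, at 15578 and 10849 normalized counts in wild-type 1 and 2, and 9582 and 9017 in cKO 1 and 2. Both cKO samples were below both wild-type samples, with a log2 fold change of −0.48 ± 0.19 (SE) and an adjusted p of 0.857 in limma. *Flt1* was also among the endothelial markers. Groups did not overlap for 3 of the 7 genes, all with lower cKO samples, where 18% of all genes did so. The median was −0.27, and it was −0.020 without wild-type 2 and −0.093 without cKO 1.

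**Figure D2:**
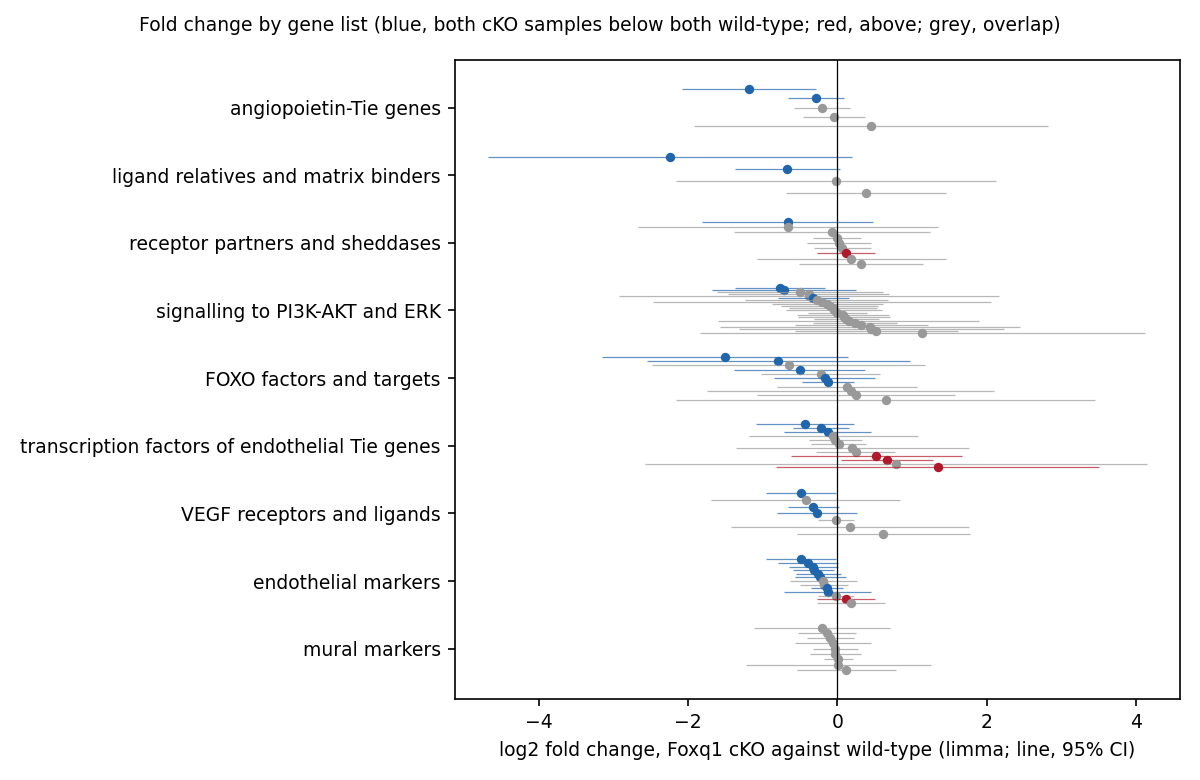
Log2 fold change of each tested gene, *Foxq1* cKO against wild-type samples, by gene list, with points for the limma estimate and lines for its 95% CI; blue marks genes with both cKO samples below both wild-type samples, red those with both above and grey those that overlap. *Angpt2* is the lowest of the angiopoietin-Tie genes at −1.19, and the endothelial markers lie mostly below 0, with a median of −0.19, where the mural markers have a median of −0.027.

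Genes with a profile over the 4 samples most like that of each member were sought among 11402 others with a mean of at least 50. Likeness was the root-mean-square distance between log2 profiles, each centered on its own mean. Nearest to *Angpt2* were *Urb2* at 0.046, *Phka2* at 0.069 and *Mfhas1* at 0.080, where the own deviation of *Angpt2* was 0.66, and 6 genes lay within 0.1. Nearest to *Angpt1* were *Wfs1* at 0.10, *Gon7* at 0.14 and *Gng7* at 0.16, and 0 genes lay within 0.1 of it, where its own deviation was 0.84. The other members had many near profiles, but their own deviations were small, at 0.19 for *Tie1*, 0.17 for *Ptprb* and 0.15 for *Tek*. A fixed distance of 0.1 is wide beside such deviations, so their counts cannot be set against those of the ligands. Nearest to *Tie1* were *Ech1*, *Cxxc5* and *Nubp2*, with 244 genes within 0.1. For *Ptprb* the nearest were *Grpel1*, *Tmem109* and *Polr2a*, with 305, and for *Tek* *Psmc3*, *Jpt2* and *Ywhag*, with 246. With 4 samples, such likeness is a description only.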

How the data were processed

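RNA-seq of CD31-sorted cortical brain ECs was analysed. The deposited values are a signal, read counts that the authors divided by a size factor per sample. The submitters' processing notes name Bowtie2 2.2.3, TopHat2 2.0.12, HTSeq 0.6.0 and mm9. Repeated lines were collapsed to 12693 symbols. Dividing by the value of 1 read gave whole reads for 100% of values in each sample (tolerance 0.001). Reads without molecular identifiers are not independent molecules, so error exceeds that of counting. Every listed gene had at least 1 read in each sample and 21 in total, so a gene not listed may have had reads in some samples.

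limma 3.58.1 (lmFit, eBayes with trend) in R 4.3.3 was fitted on log2(value + 1) for the 12472 genes whose mean reached 10, with Benjamini-Hochberg adjustment over them, after being tested on simulated data. Fold changes are on this scale, which understates changes of low genes. DESeq2 1.42.0 and edgeR 4.0.16 (quasi-likelihood, TMM) were run on recovered reads as alternatives. Ratios within a sample were compared by an exact two-sided permutation test. Other alternatives were pseudocounts, filters, scalings, variance settings, a replicate block and leaving out each sample. Exon lengths, as the union over transcripts, came from GENCODE M21 and matched 99.9% of identifiers.

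The members and lists were chosen with earlier results of these data known. From each list, genes at an unadjusted p under 0.05 were named, or otherwise the 3 most abundant and the 1 with the largest change among means of at least 50, with the 3 nearest profiles per member. Tables and figures were made with Python 3.11.15, pandas 2.3.3 and matplotlib 3.10.9. Some genes of the lists are counted in them but not reported here by name.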

Additional observations from a re-analysis of the deposited data

How the results depend on the processing

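Over 17 alternative settings each, *Angpt2*, *Tie1*, *Ptprb* and *Foxq1* kept the sign of their log2 fold changes, and none of the 5 angiopoietin-Tie genes passed adjustment. Of these settings, the filters on low values, the variance settings and the replicate block cannot change a log2 fold change. Their agreement in sign was fixed in advance. DESeq2 called 59 genes at an adjusted p under 0.05 where limma called 0, among them *Foxq1* at −4.09. *Tek* changed sign to 0.084 with quantile normalization and, in settings chosen after seeing the data, to 0.14 scaled to endothelial and 0.0018 scaled to mural markers. The latter settings shift all genes, and relative to the median of all genes *Tek* stood at −0.049 in both. These settings also moved the split of genes at an unadjusted p under 0.05, from 380 lower and 271 higher to 189 lower and 502 higher, and to 254 lower and 297 higher. Median log2 fold changes moved for the receptor partners to 0.14 with quantile normalization, and for the transcription factors to 0.17 with quantile normalization, −0.0030 with DESeq2 and −0.0034 with edgeR. The other causes were not tested.

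With 1 sample left out, log2 fold changes ran from −1.56 to −0.81 for *Angpt2*, −0.34 to −0.075 for *Ptprb*, −0.24 to 0.15 for *Tek* and −0.52 to 1.43 for *Angpt1*, and log2 ratio differences from −0.49 to 0.0035 for *Tie1* to *Tek* and −0.36 to 0.023 for *Ptprb* to *Tek*. Genes at an unadjusted p under 0.05 numbered from 276 without cKO 1 to 1569 without wild-type 2, against 651 with all samples. List medians ran from −0.56 to −0.13 for ligand relatives, a list that includes *Svep1*, so nothing is drawn from that range. They ran from −0.13 to 0.053 for signaling genes, −0.099 to 0.11 for receptor partners and −0.45 to −0.14 for FOXO genes. For transcription factors they ran from 0.018 to 0.16, and for VEGF genes from −0.25 to −0.020. In these fits the lone sample of a group was assumed to vary like the other group.

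Replicate numbers were not taken as pairs in the main fit. Deviations of same-numbered samples had a correlation of 0.0325 across genes, which are not independent. With 2 samples a group, this value cannot show whether same-numbered samples shared a litter, and the sources used here state no pairing. With the number as a replicate block, 693 genes had an unadjusted p under 0.05 and 0 an adjusted one. In this balanced design a block cannot move a log2 fold change, so that of *Angpt2* stayed at −1.19 by construction. Its unadjusted p in limma was 0.0205 with the block and 0.0179 without it.

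Over all genes, log2 fold changes had a median SE of 0.50 with 2 samples a group. *Angpt1*, with 54 to 227 reads, was the least precisely measured of the 5 genes, at an SE of 0.97. Whether the samples came from single or pooled embryos was not given in the sources used here. Transcript levels say nothing of protein, receptor phosphorylation or ligand release.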

Other observations

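Of the 63 cell type markers tested, *Flt1*, *Mfsd2a*, *Csf1r* and *Gfap* had an unadjusted p under 0.05, all 4 lower in cKO samples, where 3.05% of all genes were lower at that threshold and 2.17% higher, and limma gave each of these 4 genes an adjusted p of 0.857. DESeq2 gave *Gfap* an adjusted p of 0.0162, and the other 3 genes adjusted p from 0.201 for *Csf1r* to 0.768 for *Mfsd2a*. *Mfsd2a*, the lysolipid transporter that limits transcytosis at the blood-brain barrier, stood at 29142 and 25765 normalized counts in wild-type 1 and 2, and at 22363 and 21721 in cKO 1 and 2. The groups did not overlap, and the log2 fold change was −0.31 ± 0.11 (SE). *Csf1r*, the receptor on which microglia depend, stood at 3365 and 2579 in wild-type 1 and 2, and at 1732 and 1587 in cKO 1 and 2. Its groups did not overlap either, with a log2 fold change of −0.83 ± 0.23 (SE), while 6 of the 12 markers of microglia and macrophages had positive log2 fold changes and the list a median of 0.013.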
